A study of Mus musculus with 3 samples.

Results

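The genes described here are the heat shock proteins and the J-domain chaperones, measured in macrophages of the 4T1 model on whole-genome mouse expression arrays. They were taken by name: every gene whose symbol starts with Hspa, Hspb, Hspd, Hspe, Hsph, Hsp90, Dnaja, Dnajb or Dnajc, together with *Bag3*. This gave 73 of 18193 genes, of which 61 lay above 5.3 (log2), the level treated as background, on at least 1 array. *Hsf1*, which encodes the main heat shock transcription factor and which the rule also names, and *Hsp90ab1*, which encodes the constitutive cytosolic HSP90, were not analysed here. 4T1 cells derive from a breast carcinoma of the BALB/c strain and were inoculated into the fat pad of BALB/c mice aged 5 to 6 weeks. pTAMs were tumor-associated macrophages of the primary tumor and mTAMs those of the matched metastatic lung, taken 5 weeks after inoculation. BMDM were macrophages differentiated in culture from the marrow of healthy mice, whose strain and age the sources used here do not give. All had been sorted for CD11b and for the macrophage antigen encoded by *Adgre1*, and the labels name no transgene or drug treatment. Each group was 1 array, and the sources used here do not say whether RNA of several animals was pooled.

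Values are on the log2 scale of RMA, which corrects the brightness of each probe for background, equalizes the distribution between arrays and combines the probes of a set, so that a difference of 1 is 2-fold. With 1 array per group the groups could not be tested against each other, and the spread across animals is unknown. The technical spread that the data do hold, the SD of the log2 difference between probe sets of the same gene, was 0.35 between pTAMs and BMDM, 0.44 between mTAMs and BMDM and 0.26 between both TAM arrays. It covers neither the animal nor the sort nor the array, and precision is limited by the number of arrays. Levels of different probe sets are not comparable with each other, so genes are compared by their differences between arrays. In bulk RNA, fewer cells that express a gene and less of its RNA per cell cannot be told apart.

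Heat shock proteins are chaperones that bind unfolded stretches of other proteins. HSP70 proteins do so in cycles driven by ATP. J-domain proteins deliver clients to HSP70 and trigger its ATPase, and nucleotide exchange factors, among them the HSP110 proteins and BAG3, reset it. HSP90 acts later on clients such as kinases and steroid receptors, chaperonins enclose their clients in a chamber, and small heat shock proteins hold unfolded proteins without ATP. Some members are made at all times, such as HSC70 (*Hspa8*), whereas others are switched on by heat and other proteotoxic stress, when HSF1 binds heat shock elements in their promoters. In macrophages the inducible forms also respond to fever, inflammation and handling of the cells.

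A heat shock element is built of alternating units GAA and TTC that lie 2 bases apart. The stretches before the start site of *Hspa1a*, *Hspa1b* and *Hspb1* are shown because these genes had the largest differences of the heat-inducible members, and that of *Hspe1* because it holds the longest run of units found among the members while *Hspe1* itself was not higher in TAMs. Sequences are those of RefSeq on GRCm38.p6, written 5′ to 3′ on the strand of the gene and ending with the last base before its start, except for *Hspe1*. Capitals mark the units of GAANNTTC or TTCNNGAA.
Hspa1a, chr17:34972157-34972276, minus strand: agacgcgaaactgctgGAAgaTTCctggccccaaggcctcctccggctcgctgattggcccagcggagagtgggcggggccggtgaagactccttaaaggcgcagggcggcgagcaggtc
Hspa1b, chr17:34959239-34959358, minus strand: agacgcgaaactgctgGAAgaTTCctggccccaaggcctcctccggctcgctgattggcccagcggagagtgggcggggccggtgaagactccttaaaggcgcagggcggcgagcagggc
Hspb1, chr5:135887799-135887918, plus strand: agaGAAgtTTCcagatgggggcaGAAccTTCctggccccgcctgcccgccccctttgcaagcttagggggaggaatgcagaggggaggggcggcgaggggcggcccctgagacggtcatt
Hspe1, chr1:55088054-55088083, plus strand: gtccgTTCtaGAAccTTCcgGAAggccccg

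*Hspa1a* and *Hspa1b* lie next to each other on chromosome 17, and their promoters had the same base at 247 of the 250 positions before the start (98.8%). The element begins 104 bases before the start in both. *Hspb1* held such an element at 117 and another at 97 bases before its start. The run in *Hspe1* begins 89 bases before its start and lies within the annotated span of *Hspd1*, which is transcribed from the other strand, so that both chaperonin genes share it. Of the 73 members, 60 had a promoter in the RefSeq table, and 14 of these (23.3%) held a match to GAANNTTC or TTCNNGAA in the 250 bases before a start, against 14.5% of 27025 genes. Both motifs read the same on either strand. Among the 10 heat-inducible members with a promoter, 7 held a match (*Dnaja1*, *Dnaja4*, *Dnajb4*, *Hspa1a*, *Hspa1b*, *Hspb1* and *Hsph1*), as did 1 of 16 constitutive members of cytosol and nucleus, *Dnajb6*. The heat-inducible members were listed as targets of HSF1, so their larger share partly restates how the list was chosen. A run of 3 units, GAANNTTCNNGAA or TTCNNGAANNTTC, which are each other's reverse complement and hold the shorter motifs, was found in *Dnajb6*, *Hspd1* and *Hspe1*, against 0.514% of all genes. That is 0 of the 10 heat-inducible members and 1 of the 16 constitutive ones. These are matches of letters in a window and not binding sites.

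To describe how the chaperones differed between cultured macrophages and TAMs, and between primary and metastatic TAMs, each member was compared between arrays, and a difference of at least 2-fold is referred to as a call. In pTAMs, 4 of 59 compared members were called higher than in BMDM (*Hspa1a*, *Hspa1b*, *Hspb1* and *Hspb8*), or 6.78%, against 8.78% of all 11859 compared genes. *Dnajb4* and *Dnajc9* were called lower, 3.39% of the members against 7.50% of all genes. In mTAMs, 7 of 61 were called higher than in BMDM, the same 4 with *Hspa2*, *Dnajb9* and *Dnajb1*, or 11.5%, and 11.5% of all 11945 genes were. There 6 were called lower (*Dnajc15*, *Hspa9*, *Hspbp1*, *Dnajc9*, *Dnajc12* and *Dnajc18*), 9.84% against 14.4% of all genes. Between mTAMs and pTAMs, *Hspa2* alone was called higher and *Hspb11* alone lower, 1.64% of 61 members each, against 5.36% and 2.58% of all 11801 genes. The share of members called was thus near or below that of all genes in each comparison, and 46 of the 61 members stayed within 2-fold in all 3. The comparisons with BMDM share 1 array.

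The heat-inducible HSP70 genes had by far the largest differences of all members. *Hspa1a* had 5.23 in BMDM, 12.14 in pTAMs and 12.59 in mTAMs. Its BMDM value lay at background, so it was at least 115-fold higher in pTAMs and at least 156-fold higher in mTAMs. *Hspa1b* had 7.12 in BMDM, 12.76 in pTAMs and 13.17 in mTAMs, which is 49.9-fold and 66.3-fold higher than in BMDM. Both TAM arrays lay far above BMDM and within 0.45 of each other. The other probe sets of *Hspa1b* gave larger differences, 6.84 and 7.43 in pTAMs and 7.26 and 7.86 in mTAMs, in place of 5.64 and 6.05, the larger of each from a BMDM value of 4.95, below the background level. The messages of these genes are nearly identical, so their probe sets may share signal, and their values are not independent. The third gene of this cluster, *Hspa1l*, which is mainly expressed in testis, had 4.27, 4.77 and 4.86 and stayed below background on every array.

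**Figure D1:**
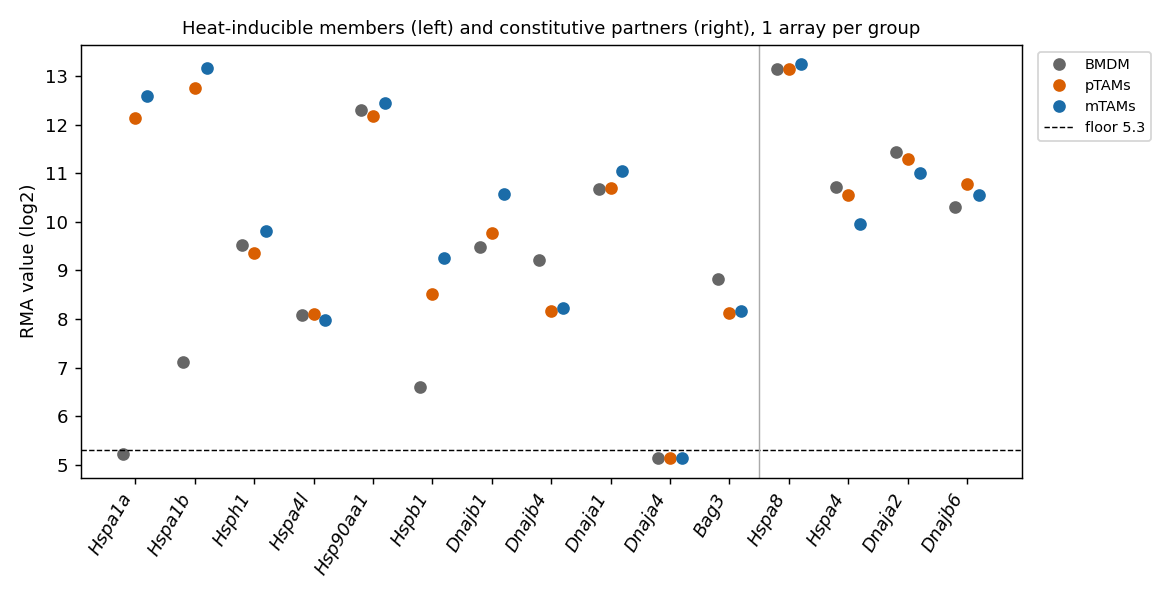
RMA values (vertical axis, log2) of the 11 heat-inducible members and of 4 constitutive partners (horizontal axis) for BMDM, pTAMs and mTAMs, where every point is a single array, with the background level of 5.3 as a dashed line. *Hspa1a*, *Hspa1b* and *Hspb1* lie far lower in BMDM than in both TAM arrays, whereas *Hsph1*, *Hspa4l*, *Hsp90aa1* and *Hspa8* each lie within 0.46 on all 3.

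*Hspb1*, which encodes the small heat shock protein HSP25, followed at a distance. It had 6.61 in BMDM, 8.51 in pTAMs and 9.25 in mTAMs, 3.73-fold and 6.23-fold higher than in BMDM. Its second probe set gave log2 differences of 2.31 and 3.41 in place of 1.90 and 2.64. Thus the order of the 3 arrays was the same for both probe sets. *Hspb1* is also strongly expressed in epithelia, and markers of epithelium or carcinoma were present on the TAM arrays: their summed linear level was 274 in BMDM, 4277 in pTAMs and 2278 in mTAMs, with 2, 7 and 6 of 8 above background. Among them *Epcam* was nearly level, with 6.38, 6.53 and 6.53. The part of these markers' cells in the level of *Hspb1* was not tested. Markers of lung epithelium had summed linear levels of 205, 235 and 4951 in the same order and were higher in mTAMs than in pTAMs in 5 of 5 cases. Such sums are dominated by the brightest genes, and *Scgb1a1* of airway club cells (4.12, 4.21 and 12.17) made up most of this one in mTAMs. The median level of these markers was 5.40, 5.64 and 6.61, and *Sftpa1* and *Sftpb* had only 5.64 and 6.10 in mTAMs. The part of the lung markers was not tested either. *Hspb1* was higher in mTAMs than in pTAMs by 0.74.

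*Dnajb1*, which encodes HSP40, the main J-domain partner of inducible HSP70, had 9.49 in BMDM, 9.76 in pTAMs and 10.58 in mTAMs. It was 2.13-fold higher in mTAMs than in BMDM and 1.77-fold higher than in pTAMs, but within 1.21-fold between pTAMs and BMDM. The second probe set gave 0.51, 1.64 and 1.13 for pTAMs against BMDM, mTAMs against BMDM and mTAMs against pTAMs, in place of 0.27, 1.09 and 0.82. mTAMs were the highest by both. *Dnaja1*, a class A J-domain protein that works with HSC70, had 10.68, 10.69 and 11.05 in BMDM, pTAMs and mTAMs, and its other probe sets gave 0.81 and 0.95 for mTAMs against pTAMs in place of 0.36.

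Most other heat-inducible members did not follow *Hspa1a*. *Hsph1*, which encodes the inducible HSP110, had 9.53 in BMDM, 9.36 in pTAMs and 9.82 in mTAMs. *Hsp90aa1*, which encodes the stress-inducible HSP90, had 12.29, 12.18 and 12.45, and *Hspa4l*, another HSP110 gene, had 8.09, 8.10 and 7.98 in the same order. All 3 arrays lay within 0.46 for each of these genes. *Dnajb4* was lower in TAMs, with 9.21 in BMDM, 8.16 in pTAMs and 8.23 in mTAMs, and its second probe set above background gave -1.10 and -0.81 in place of -1.05 and -0.98. *Bag3*, whose protein links HSP70 to small heat shock proteins, had 8.83 in BMDM, 8.12 in pTAMs and 8.17 in mTAMs. *Dnaja4* had 5.14 on all 3 arrays, below background. Of the 10 heat-inducible members compared, 3 were called higher and 1 lower in pTAMs against BMDM (median difference 0.01, with a median of -0.05 over all genes). Against BMDM, 4 were called higher and none lower in mTAMs (median 0.33, with -0.11 over all genes). Of all compared genes, 8.78% were called higher and 7.50% lower in pTAMs, and 11.5% higher and 14.4% lower in mTAMs. Without *Hspa1a* and *Hspa1b* the medians of the remaining 8 were -0.05 and 0.22. The median of 0.01 in pTAMs turned to -0.06 when each array was centred on its median.

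Of the constitutive partners, *Hspa8* was nearly level by most of its probe sets, and *Hspa4* was lower in mTAMs. *Hspa8*, which encodes HSC70, had 13.15 in BMDM, 13.15 in pTAMs and 13.24 in mTAMs, so the gap between the difference of *Hspa1b* and that of *Hspa8* was 5.64 in pTAMs and 5.96 in mTAMs. A pair of further *Hspa8* probe sets were just as level. However, a probe set of *Hspa8* at a lower level had 6.93 in BMDM, 9.97 in pTAMs and 9.96 in mTAMs, differences of 3.04 and 3.03. The transcript it reports was not identified here, and the cause of this disagreement was not tested. *Hspa4*, a constitutive HSP110 gene, had 10.71, 10.56 and 9.95 in BMDM, pTAMs and mTAMs, and its other probe sets ranged from -1.16 to 0 in pTAMs and from -1.32 to 0.21 in mTAMs against BMDM. *Dnaja2* had 11.43, 11.29 and 11, and *Dnajb6*, which keeps proteins from aggregating, had 10.31, 10.78 and 10.55. Against these partners, *Hsph1* differed from *Hspa4* by -0.02 in pTAMs and 1.05 in mTAMs, *Dnaja1* from *Dnaja2* by 0.15 and 0.80, and *Dnajb1* from *Dnajb6* by -0.20 and 0.85, each as the gap between the differences from BMDM. These gaps have no error of their own, and the first rests on the probe set chosen for *Hspa4*, whose difference in pTAMs was -0.55 with the mean of its probe sets in place of -0.15. The gap of *Dnaja1* in mTAMs rests on such choices too. There the other probe sets of *Dnaja1* gave 0.74 and 0.99 in place of 0.37, and those of *Dnaja2* from -0.7 to 0.43 in place of -0.43. Of 18 constitutive members of cytosol and nucleus compared, 1 was called lower in each comparison with BMDM, against 7.50% of all genes in pTAMs and 14.4% in mTAMs. None was called higher, against 8.78% and 11.5% of all genes, and the medians were -0.02 in pTAMs and -0.25 in mTAMs. The one called was *Dnajc9*, a histone chaperone that acts in replicating cells, with 8.51 in BMDM, 7.49 in pTAMs and 7.32 in mTAMs.

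**Figure D2:**
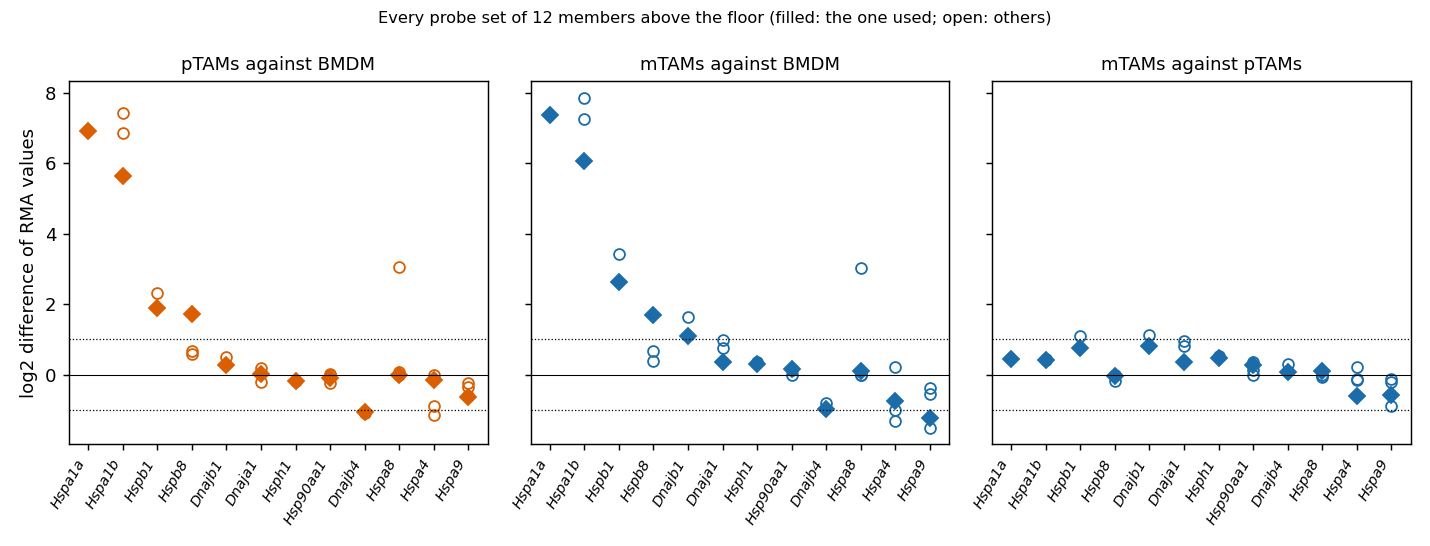
Log2 differences (vertical axis) of every probe set above background for 12 members (horizontal axis) in the 3 comparisons, with the probe set used for the gene filled and others open, and dotted lines at 2-fold. All probe sets of *Hspa1a*, *Hspa1b* and *Hspb1* lie above 2-fold against BMDM, those of *Hspb8* lie on either side of it, and a single probe set of *Hspa8* lies at 3.04 in pTAMs and 3.03 in mTAMs while the others lie at 0.09 or below.

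Among the other genes with an Hspb name, *Hspb8*, whose protein works with BAG3 in the removal of misfolded proteins, had 4.72 in BMDM, 6.43 in pTAMs and 6.40 in mTAMs. As BMDM lay below background, it was at least 2.19-fold higher in pTAMs and at least 2.14-fold higher in mTAMs. Its other probe sets did not reach 2-fold, with 0.58 and 0.67 in pTAMs and 0.39 and 0.67 in mTAMs, and the mean of its probe sets was 0.99 and 0.91. *Hspb11*, which encodes a protein of intraflagellar transport despite its name, had 8.23 in BMDM, 8.67 in pTAMs and 7.40 in mTAMs, and was 2.41-fold lower in mTAMs than in pTAMs. *Hspbp1*, which encodes a nucleotide exchange factor of HSP70, had 9.39, 8.52 and 8.20 in BMDM, pTAMs and mTAMs, 2.28-fold lower in mTAMs than in BMDM. *Hspb6* and *Hspb2*, small heat shock proteins of muscle, were near background, between 5.44 and 6.13 on all arrays. *Hspb3*, *Hspb7* and *Hspb9* stayed below it.

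Of the other HSP70 genes, *Hspa2* had 6.13 in BMDM, 6.56 in pTAMs and 7.61 in mTAMs. It was 2.79-fold higher in mTAMs than in BMDM and 2.07-fold higher than in pTAMs, and it was read from a single probe set. *Hspa2* is best known from the testis. *Hspa14*, a partner of the ribosome, had 9.04, 9.0 and 9.16. *Hspa12a* had 5.97 in BMDM and 6.11 in both TAM arrays, and *Hspa12b* lay below background.

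The chaperones of the endoplasmic reticulum, which fold secreted and membrane proteins, were mostly a little lower in TAMs. *Hspa5*, which encodes BiP, had 12.66 in BMDM, 12.38 in pTAMs and 12.64 in mTAMs. *Hsp90b1*, which encodes GRP94, had 12.43, 12.10 and 11.99. Higher in both TAM arrays was *Dnajb9*, which encodes ERdj4, a J-domain partner of BiP and a target of the unfolded protein response: it had 9.06 in BMDM, 9.82 in pTAMs and 10.38 in mTAMs, 2.50-fold higher in mTAMs than in BMDM, from a single probe set. *Dnajc10*, which encodes a disulfide reductase, went the other way with 10.47, 9.70 and 9.66, and its other probe sets gave -0.43 and -0.56 in pTAMs and -0.78 and -0.94 in mTAMs in place of -0.77 and -0.81. *Dnajb11* had 10.35, 9.98 and 9.78, and *Dnajc1* had 7.97, 8.12 and 7.87. Of the 8 members of this list, *Dnajb9* in mTAMs was the only one called, where 11.5% of all genes were called higher than in BMDM. The medians were -0.31 in pTAMs and -0.27 in mTAMs against BMDM. Both medians lay within the probe set spread of 0.35 and 0.44, and that in mTAMs became -0.07 after cyclic loess normalization.

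Mitochondrial chaperones had mostly lower levels in TAMs than in BMDM, and the difference was larger in mTAMs. *Hspa9*, which encodes mortalin, the HSP70 of the mitochondrial matrix and of protein import, had 10.54 in BMDM, 9.89 in pTAMs and 9.30 in mTAMs, 2.36-fold lower in mTAMs than in BMDM. Its other probe sets gave from -1.51 to -0.38 for that comparison, and 1 of the 3 passed 2-fold. *Hspd1* and *Hspe1*, which encode the chaperonin HSP60 and its lid HSP10, had 11.50 and 10.99 in BMDM, 10.71 and 10.87 in pTAMs, and 10.63 and 10.35 in mTAMs. *Dnajc15*, a J-domain protein of the inner membrane, had 9.89 in BMDM, 9.38 in pTAMs and 8.64 in mTAMs, 2.38-fold lower in mTAMs than in BMDM. In pTAMs all 7 compared mitochondrial members were lower than in BMDM (median -0.35) and none by 2-fold, against 7.50% of all genes. In mTAMs 7 of 8 were lower than in BMDM (median -0.82), 2 of them by 2-fold, where 14.4% of all genes were called lower. The remaining one, *Dnajc28*, had 5.18 in BMDM and 5.44 in mTAMs, at the edge of background. The medians over all genes were -0.05 and -0.11, with 6434 of 11859 genes lower in pTAMs and 6765 of 11945 in mTAMs. The mitochondrial medians stayed negative under every scaling, at -0.63 in mTAMs after cyclic loess normalization. The pTAM median was no larger than the probe set spread of 0.35. The summed levels of neutrophil and of fibroblast markers, given at the end, rose in the same order of the arrays, though not every fibroblast marker did. The part of these cells was not tested.

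**Figure D3:**
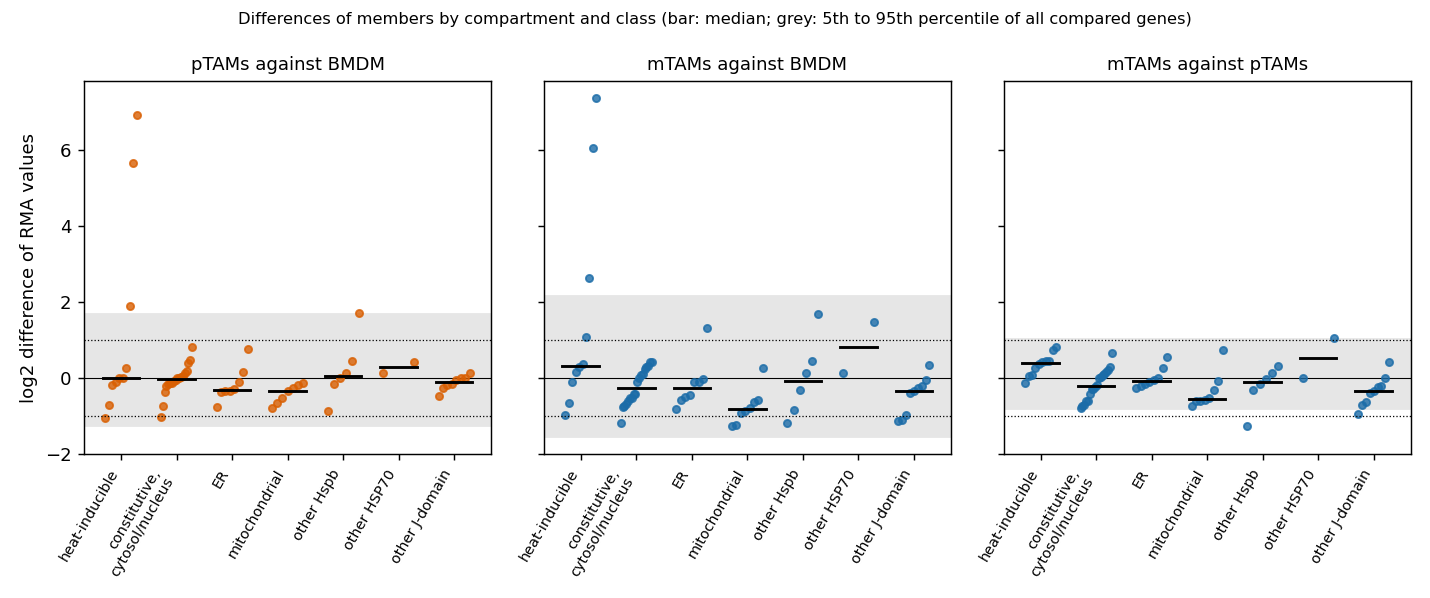
Log2 differences (vertical axis) of the members above background in each comparison, by class and compartment (horizontal axis), 1 point per gene, with the median as a bar, 2-fold as dotted lines and the 5th to 95th percentile of all compared genes in grey. *Hspa1a* and *Hspa1b* stand at 6.91 and 5.64 in pTAMs and at 7.36 and 6.05 in mTAMs, and the mitochondrial members center at -0.82 in mTAMs against BMDM and at -0.54 against pTAMs.

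The remaining J-domain genes serve narrower tasks. *Dnajc12*, a cofactor for aromatic amino acid hydroxylases, had 8.60 in BMDM, 8.43 in pTAMs and 7.48 in mTAMs, 2.17-fold lower in mTAMs than in BMDM. *Dnajc18* had 6.95, 6.48 and 5.84, 2.16-fold lower in mTAMs than in BMDM, and its second probe set above background gave -1.48. *Dnajc5*, which encodes the cysteine string protein of vesicles, was slightly higher in TAMs, with 9.82 in BMDM, 10.22 in pTAMs and 10.25 in mTAMs, and its other 4 probe sets gave from 0.44 to 1.14 in mTAMs. Over all 37 J-domain members compared between mTAMs and BMDM, 27 differences were negative and 10 positive, with a median of -0.40, where 6765 of 11945 genes were negative with a median of -0.11. Between pTAMs and BMDM, 20 of 35 were negative, 12 positive and 3 zero, with a median of -0.09, close to all genes (6434 of 11859 negative, median -0.05).

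In all, 12 members stayed at or below background on every array, among them *Dnajb3*, *Dnajb7* and *Dnajb8* of the testis and *Dnajc6*, which encodes neuronal auxilin. Of these, 4 had the same value on all 3 arrays. Nearest to the background level were *Dnajb8* (5.17 at most) and *Dnaja4* (5.14) below it and *Dnajb13* (5.36) and *Dnajc28* (5.44) above it. *Dnajb13* and *Dnajc28* passed it on the mTAM array alone, by 0.06 and 0.14.

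To see whether primary and metastatic TAMs differed in their chaperones, mTAMs were compared with pTAMs. *Hspa1a* and *Hspa1b* were within 1.37-fold of each other between these arrays. Of the 10 compared heat-inducible members, 9 were higher in mTAMs and 1, *Hspa4l*, was lower, with a median of 0.39. None differed by 2-fold, whereas 5.36% of all genes were called higher and 2.58% lower. Their largest differences were those of *Dnajb1* (0.82), *Hspb1* (0.74), *Hsph1* (0.46) and *Hspa1a* (0.45). *Bag3* (0.05) and *Dnajb4* (0.07), which count as higher, and *Hspa4l* (-0.12) lay within the probe set spread of 0.26. Without *Hspa1a* and *Hspa1b* the heat-inducible median was 0.32. The constitutive members of cytosol and nucleus had a median of -0.20, with 11 of 18 lower, and the mitochondrial members one of -0.54, with 7 of 8 lower. The gap between the heat-inducible and the constitutive median was 0.58, and ranged from 0.52 to 0.65 over the alternatives. Over all 11801 compared genes the median was -0.06, with 6386 lower and 3985 higher. The constitutive median lay within the probe set spread of 0.26 and became -0.09 after cyclic loess normalization. The endoplasmic reticulum list had a median of -0.07, which became 0.10 after cyclic loess normalization. The second probe sets of *Dnajb1* and *Hspb1* passed 2-fold, with 1.13 and 1.10, and so did that of *Dnajc21*, a factor of ribosome maturation, with -1.11 in place of -0.78.

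**Figure D4:**
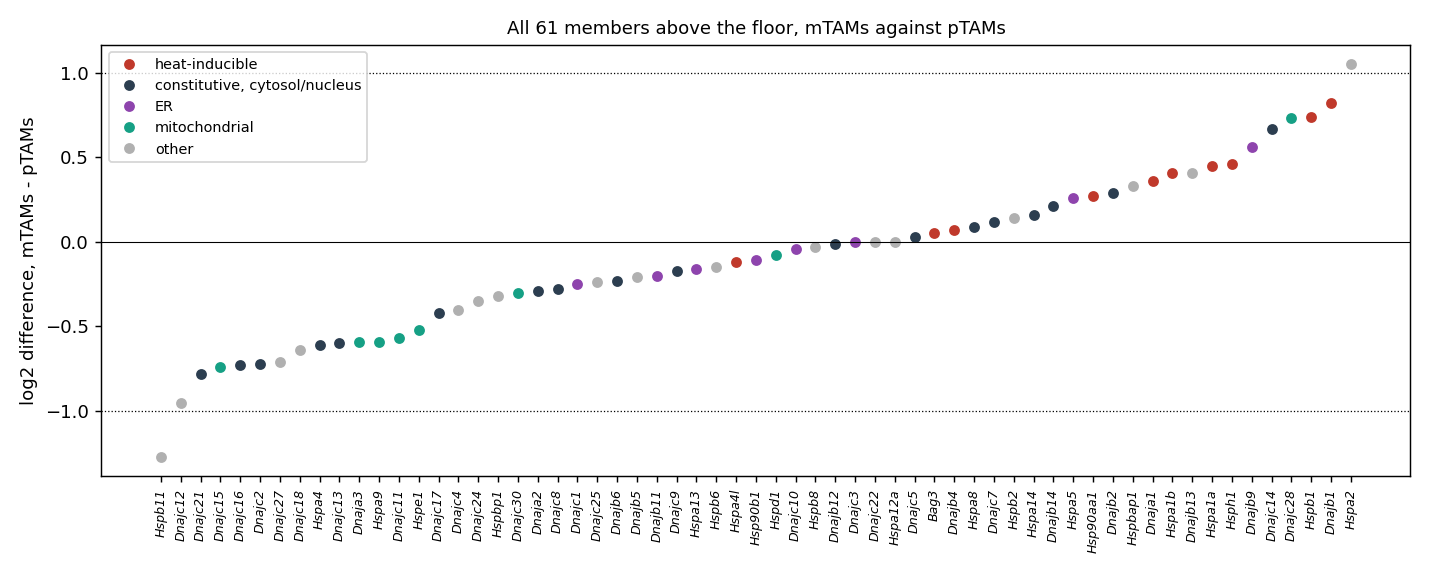
Log2 differences between mTAMs and pTAMs (vertical axis) for the 61 members above background in order of size (horizontal axis), colored by class, with dotted lines at 2-fold. Heat-inducible members lie mostly at the right end, up to 0.82, mitochondrial members mostly at the left, and *Hspa2* at 1.05 and *Hspb11* at -1.27 are the only ones past 2-fold.

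Most other genes of protein folding did not share the higher level of *Hspa1a* in TAMs. Of 24 co-chaperones compared, *Fkbp5*, an HSP90 partner that is induced by glucocorticoids, was the only one called higher than in BMDM, with 8.38 in BMDM, 9.89 in pTAMs and 10.51 in mTAMs. *Ahsa1*, which encodes an activator of the HSP90 ATPase and is itself a target of HSF1, was called lower in both, with 11.66, 9.85 and 10.32. *Bag1*, a nucleotide exchange factor of HSP70, was called lower in mTAMs, with 10.87 in BMDM and 9.86 in mTAMs. The co-chaperone medians were -0.28 in pTAMs and -0.62 in mTAMs, with -0.05 and -0.11 over all genes. All 8 subunits of CCT, the cytosolic chaperonin that folds actin and tubulin, were lower than in BMDM in both TAM arrays, with medians of -0.24 in pTAMs and -0.85 in mTAMs, and *Tcp1* and *Cct7* were called lower in mTAMs. They were also lower in mTAMs than in pTAMs in 8 of 8 cases (median -0.61), none by 2-fold. The pTAM medians of the co-chaperones and of CCT against BMDM lay within the probe set spread of 0.35. Neutrophil markers were higher in mTAMs than in pTAMs in 8 of 8 cases (median 1.98), and their part was not tested.

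Among 9 compared HSF1 targets outside the families described, a list that shares *Ahsa1*, *Stip1* and others with the co-chaperones, *Serpinh1*, a collagen chaperone of fibroblasts, was called higher than in BMDM (6.05 in BMDM, 8.07 in pTAMs, 8.42 in mTAMs), as was *Hmox1*, a heme oxygenase that also answers to oxidants (9.02, 10.03 and 10.24). *Ahsa1* was called lower, and *Cryab*, a small heat shock protein, had 5.97 on all arrays. *Stip1*, which joins HSP70 to HSP90, had 9.11, 8.57 and 8.32. None of 9 other folding genes of the endoplasmic reticulum, such as *Hyou1* and *Sdf2l1*, was called in any comparison. *Hyou1* is also counted among the co-chaperones. The medians of these 9 were -0.15 in pTAMs and -0.46 in mTAMs against BMDM, the first within the probe set spread of 0.35.

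**Figure D5:**
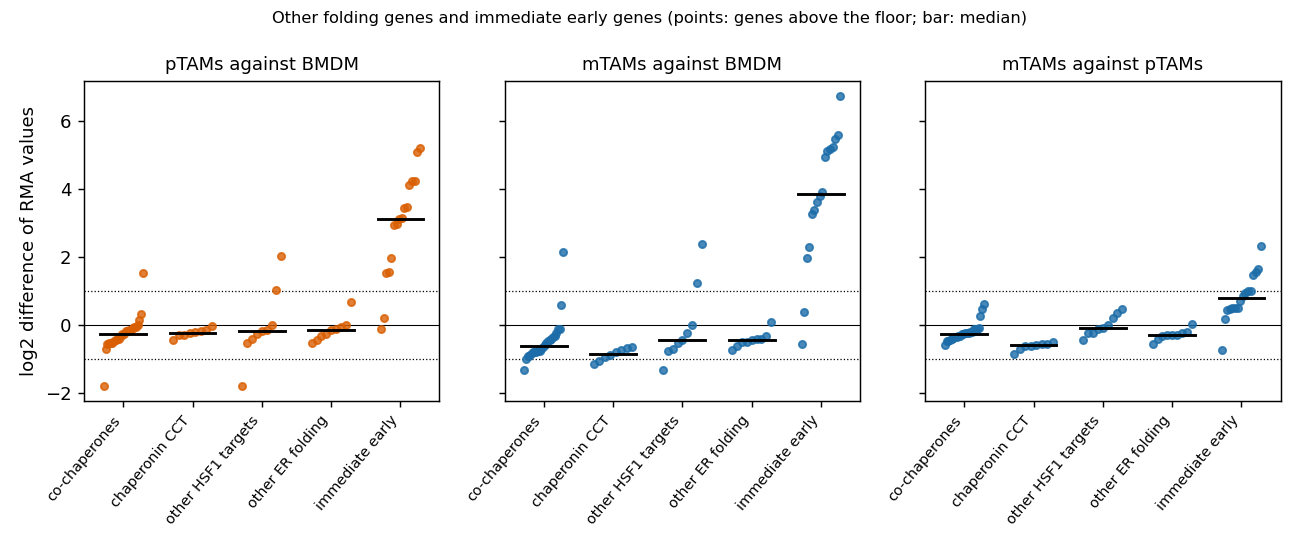
Log2 differences (vertical axis) of genes above background in 4 lists of other folding genes and in the immediate early genes (horizontal axis), with the median of each list as a bar and dotted lines at 2-fold. The immediate early genes center at 3.12 in pTAMs and 3.84 in mTAMs against BMDM, and the folding lists center below 0.

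Immediate early genes, which cells switch on within minutes of a stimulus or of handling, moved with *Hspa1a*. Of 16 of them, 14 were called higher than in BMDM in each kind of TAM, with medians of 3.12 in pTAMs and 3.84 in mTAMs, and 15 of 16 were higher in mTAMs than in pTAMs (median 0.77). *Egr1* had 6.40 in BMDM, 11.59 in pTAMs and 13.14 in mTAMs, and *Fosb* had 3.66, 8.74 and 9.24. According to the methods, tumor and lung were minced and digested with enzymes at body temperature before the sort, whereas the sources used here give no such step for BMDM. Tissue of origin and preparation therefore cannot be told apart for *Hspa1a* and *Hspa1b*. The part of other cells was not tested. Macrophage markers were above background on all arrays, 10 of 10 with linear levels that summed to 57696 in BMDM, 53342 in pTAMs and 49129 in mTAMs. Against BMDM, 4 of the 10 were called higher and 1 lower in pTAMs, and 3 higher and 1 lower in mTAMs. Their median differences were 0.17 and -0.05. The one called lower was *Adgre1*, by a log2 difference of -1.93 in pTAMs and of -1.87 in mTAMs, from 11.93 in BMDM. *Itgam*, which encodes CD11b, had 10.46 in BMDM, 11.9 in pTAMs and 11.61 in mTAMs. Neutrophil markers had summed levels of 1635, 30201 and 65847 in the same order, with 7, 8 and 8 of 8 above background, and fibroblast markers 277, 1129 and 5140, with 3, 7 and 7 of 8. Of 7 fibroblast markers compared with BMDM, 6 were higher in each TAM array and 1, *Pdgfrb*, was lower (5.69, 5.46 and 5.46). *Lum* had 4.37 on all arrays.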

How the data were processed

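The deposited table holds log2 values that the authors made with RMA (version not stated) for 45037 probe sets, with medians between 5.36 and 5.43 per array. Because RMA equalizes the arrays, a global change of RNA content would go undetected. The platform annotation gave 34945 probe sets a single symbol, 932 several and 9160 none. All 73 members were found by gene ID in the RefSeq table of GRCm38.p6, which also gave the promoters, and no symbol differed.

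For each gene the probe set that was brightest on average over the arrays was used. Genes above 5.3, the level set by the rule for the members, on at least 1 of the arrays compared were kept, and calls needed 2-fold. Where a value lay at or below 5.3, the fold was taken against 5.3 and is a lower bound. Calls, also those at 3-fold, used the differences of the values as given, without this bound. *Hspb8* therefore counts as called at 3-fold, although its lower bounds were 2.19-fold in pTAMs and 2.14-fold in mTAMs. The members, the lists and the rule for the genes named (heat-inducible members and their partners, *Hspa5*, *Hsp90b1*, *Hspa9*, *Hspd1*, *Hspe1*, members past 2-fold or nearest to background, and up to 3 genes per direction of other lists) were chosen with earlier results of these data known. Further genes were picked after their values were seen. Alternatives were median-centering, repeated quantile or cyclic loess normalization, averaging a gene's probe sets, other floors, a 3-fold threshold and, added after seeing the data, omission of probe sets marked as shared. Calls were tested on simulated data only as a check of the code. The error rate of calls made from 1 array per group was not tested. Tools were R 4.3.3, limma 3.58.1, Python 3.11.15, pandas 2.3.3, numpy 2.4.6 and matplotlib 3.10.9.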

Additional observations from a re-analysis of the deposited data

How the results depend on the processing

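Of the counts of calls, the medians of the main lists and the gap between them, 117 recomputed values stayed within 1.5 times the count or within the spread between probe sets, and 9 did not. That spread is wider than several of the medians, so this is a loose limit for them. The heat-inducible median in pTAMs counted as unmoved at -0.06 in place of 0.01. So did the gap in mTAMs against BMDM, at 0.38 without a floor in place of 0.58. Of the values of single members and other lists, 635 stayed and 13 did not. The 2 members called lower in pTAMs than in BMDM, both close to 2-fold, became 1 after a repeated quantile normalization, 1 with the mean of all probe sets and 0 after cyclic loess normalization. With a 3-fold threshold this count was 0, the 7 members higher in mTAMs than in BMDM became 4 and the 6 lower ones 0, and no member was called between mTAMs and pTAMs, 0 in either direction. Among these 4, *Hspb8* passed only by its BMDM value below background. The 1 member lower in mTAMs than in pTAMs, *Hspb11*, became 0 with the mean of all probe sets. Its other probe set lay below background on every array (2.77, 2.77 and 2.74), so averaging only diluted the difference. Averaged in this way, *Hspa9* was -0.77 in mTAMs against BMDM in place of -1.24 and lost its call, *Hspa8* was 0.78 in both comparisons with BMDM, and *Hspa1b* was 6.64 in pTAMs and 7.06 in mTAMs. No called value of a named member changed sign. No paired analysis was possible because each group has 1 array. For the same reason no array could be left out. Members near 5.3 are limited by signal over background.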

Other observations

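*Dnajc19*, which encodes a J-domain subunit of the mitochondrial import motor, was left out of the members because its 3 probe sets also carry the symbol of a pseudogene. The brightest of them had 9.89 in BMDM, 9.10 in pTAMs and 8.30 in mTAMs, differences of -0.79 and -1.59 from BMDM. Another had 6.24, 6.43 and 5.95, and the third lay below background on all arrays.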
